A study of Homo sapiens with 4 samples.

Results

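The loci described here were 162 human transcript sites at which the adenosine chosen for study carried m6A in HEK293T cells, a line derived from human embryonic kidney, and was preceded by U at position -2 and G at -1. The rule used the class of a locus in cells and its sequence, not the counts. A locus belonged if the table placed it in the m6A class and its sequence read UGAC followed by A, C or U at positions 49 to 53, with the selected adenosine at position 51. These loci made up 162 of the 1988 loci of the m6A class and 162 of the 3949 distinct sequences in the library. They were carried by 486 of the 11999 designed oligonucleotides, since each locus was present as 3 tag copies that differed only in an added identifier and share 1 sequence.

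The methylated group consisted of 2 libraries of in vitro transcribed RNA incubated with the recombinant METTL3–METTL14 complex, and the unmethylated group of 2 libraries of the same RNA pool incubated without it. Both went through miCLIP2, in which an antibody against N6-methyladenosine (m6A) is crosslinked to RNA and reverse transcription stops at the crosslink, so that the counts are stops at single nucleotides. No cell, promoter or chromatin was involved, and in all 4 libraries the RNA was synthetic and bound by the same antibody. The labels describe the libraries of a group only as replicates, so the p-values below measure the spread between these libraries, which may be technical.

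METTL3–METTL14 is the complex that writes most m6A in messenger RNA. METTL3 carries the catalytic site, METTL14 helps to hold the RNA, and the preferred context is the DRACH motif, where D stands for any base but C, R for a purine and H for any base but G. GGAC is the best known form of this motif, and UGAC is generally regarded as a weaker one. The antibody also crosslinks to unmodified RNA, and the unmethylated libraries measure that background.

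The windows below show the 21 nucleotides around the selected adenosine, as RNA from 5′ to 3′, with the UGACH motif in capitals. The first 7 are loci whose signal passed the test for a rise, chosen to cover the range of changes, and the last 4 are strongly covered loci that did not pass it. The chosen windows share only the motif that defined them.
ZNF131: aacaucaaUGACUauuauaga
TBC1D9B: accgccagUGACCaugagcag
ABCB6: ucuccgagUGACCagucccgg
NIPA1: guuagaauUGACUggauagua
PPP5C: cggcaaagUGACAaucaguuu
ZNF276: aucucuguUGACUcucugcag
FEN1: cuaggcagUGACUacugugag
CIC: acggaguuUGACUggggugau
MPRIP: aagaccuuUGACUgggcugag
GJA3: ccugcugaUGACUgagcagaa
SPPL2B: ggggacagUGACUgaggggac

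The selected adenosines lay on 22 chromosomes in GRCh38 coordinates. Of the 162, 15 lay in several RefSeq genes and 4 in none, and each of the others lay in exactly 1 gene, irrespective of strand. Whether a locus was exonic, and in which part of a transcript, was not analysed here. By the base at +2, 23 loci read UGACA, 7 UGACC and the rest UGACU.

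Library totals were 13110615 and 13265092 counts in the methylated libraries and 10483825 and 12028474 counts in the unmethylated ones. The 162 loci together held 5.52% and 5.32% of the counts in the methylated libraries and 5.13% and 5.04% in the unmethylated ones. At the selected adenosine they held 5762 and 4969 counts in the methylated libraries, against 2433 and 2651 in the unmethylated ones. That share was 7.97 per 1000 of the loci's own counts in methylated replicate 1 (95% Wilson interval 7.77 to 8.18) and 7.05 in replicate 2 (6.85 to 7.24). In the unmethylated libraries it was 4.52 (4.35 to 4.70) and 4.37 (4.21 to 4.54). Reads are not independent molecules, so these and all later counting intervals cover counting error only. The intervals of the groups did not overlap, but neither did those of the 2 methylated libraries with each other.

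Summed over all 162 loci, the signal at the selected adenosine was 439 and 375 CPM (counts scaled to a library total of 1000000) in the methylated libraries, against 232 and 220 CPM in the unmethylated ones. Both methylated libraries were above both unmethylated ones, with means of 407 ± 45.9 CPM in methylated and 226 ± 8.26 CPM in unmethylated libraries (SD, n = 2 each), a ratio of 1.80. Taken as a share of the loci's own counts the ratio was 1.69. The exact two-sided permutation p was 0.333 for each, which is the smallest that 2 libraries against 2 can give. The sum rested on few loci: the 10 with the most counts there held 67.1% and 61.3% of it in the methylated libraries and 70.2% and 71.7% in the unmethylated ones. MPRIP alone, which encodes a protein that binds myosin phosphatase, held 15.6% and 11.1% in the methylated libraries, against 20.8% and 13.99% in the unmethylated ones. Without it the ratio was 1.89.

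Most of these adenosines gave few counts. Of the 162, 34 had no count at position 51 in any library, 81 had counts but fewer than the test required (at least 10 in at least 2 of the 4 libraries), and 47 were tested. The untested loci had fewer counts over their whole sequence, with a median of 588 per methylated library and 501 per unmethylated library, against 5299 per methylated library and 4004 per unmethylated library at the tested loci. For most of the 162 loci a change of the size described below was therefore not detectable at this depth.

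In the edgeR quasi-likelihood fit over all sites with Benjamini-Hochberg adjustment at 0.05, 13 of the 47 tested adenosines were higher in the methylated libraries and none was lower. Over all 142938 sites tested in the library, 3.7% were called higher and 2.01% lower. At an unadjusted p under 0.05, edgeR had 25 of the 47 higher and 1 lower, and DESeq2 had 19 higher and none lower. The shares over all sites given above are for adjusted p and are not the background of these unadjusted counts. The median log2 fold change of the 47 was 0.97 (quartiles 0.51 and 1.83), against -0.01 over all tested sites. The sign was positive at 43 and negative at 4. The filter bears on these figures, because 12 of the 47 passed it through the methylated libraries only and 1 through the unmethylated libraries only. Of these 12, ZNF131, TBC1D9B and an adenosine on chromosome 1 outside any annotated gene were called higher. Among the 26 with at least 10 counts in every library, 7 were called higher and the median was 0.66. Both methylated libraries were above both unmethylated ones at 35 of the 47, where 26% of all tested sites showed the same order. Both were below at 1, the adenosine of ZNF174 at chr16:3408684, which is named here after its values were seen. It had 8 and 9 counts in the methylated libraries, against 22 and 15 in the unmethylated ones, and its log2 fold change of -1.38 ± 0.55 did not pass (edgeR, Benjamini-Hochberg adjusted p = 0.163). The 3 other negative values, in PNMA1, TOR3A and CSNK1D, were between -0.08 and -0.02.

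Among the called loci, the largest changes were at ZNF131, TBC1D9B and ABCB6, each with about 1 CPM or less in the unmethylated libraries. The adenosine at ZNF131 (chr5:43174669, + strand), a gene for a zinc finger protein, had 19 and 27 counts in the methylated libraries, against 0 and 2 in the unmethylated ones. The groups did not overlap, but with 2 counts on one side the ratio of 19.6 had a 95% counting interval of 5.13 to 167 (fitted log2 fold change 4.12 ± 0.83 SE, edgeR Benjamini-Hochberg adjusted p = 0.00294). The fitted change was 3.25 without unmethylated replicate 1 and 7.43 without unmethylated replicate 2, and DESeq2 gave no adjusted p. TBC1D9B (chr5:179863476, - strand), which encodes a GTPase-activating protein of the TBC family, had 87 and 74 counts in the methylated libraries, against 6 and 9 in the unmethylated ones. Each methylated library was several times above each unmethylated one, and the log2 fold change was 3.15 ± 0.44. ABCB6 (chr2:219218733, - strand), an ATP-binding cassette transporter linked to porphyrins, had 6.48 and 8.90 CPM in the methylated libraries, against 0.858 and 1.08 CPM in the unmethylated ones, with a log2 fold change of 2.93 ± 0.40. ZNF131, TBC1D9B and the chr1:40257736 adenosine described below did not pass the filter when either methylated library was left out. TBC1D9B and ABCB6 were both UGACC loci, of which only 4 could be tested.

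NIPA1 (chr15:22824345, + strand), a magnesium transporter gene, combined a large change with many counts. It had 190 and 238 counts at the selected adenosine in the methylated libraries, against 20 and 37 in the unmethylated ones. These were 16.2 ± 2.44 CPM in methylated and 2.49 ± 0.83 CPM in unmethylated libraries (SD, n = 2 each), with a log2 fold change of 2.65 ± 0.34 and the smallest adjusted p among these loci (edgeR, Benjamini-Hochberg, 1.5e-05). ZNF276 (chr16:89723249, + strand), another zinc finger gene, had 207 and 202 counts in the methylated libraries, against 44 and 43 in the unmethylated ones, and its log2 fold change was 1.97 ± 0.31. In both genes the replicates of a group lay close together relative to the distance between groups. ZNF638 (chr2:71422990, + strand), a nuclear DNA-binding zinc finger protein, had 97 and 85 counts in the methylated libraries, against 16 and 21 in the unmethylated libraries, with a log2 fold change of 2.04 ± 0.37.

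FEN1 (chr11:61796059, + strand), the flap endonuclease that trims Okazaki fragments, had the strongest signal among the called loci. Its selected adenosine had 35.8 and 31.7 CPM in the methylated libraries, against 11.8 and 14.2 CPM in the unmethylated ones. The groups did not overlap, and the log2 fold change was 1.34 ± 0.28 (edgeR, Benjamini-Hochberg adjusted p = 0.00374). Without methylated replicate 1 it was not called (adjusted p = 0.0567). The adenosine at chr2:74503110 (+ strand), where LBX2 and LBX2-AS1 overlap, had 16.5 and 17.5 CPM in the methylated libraries, against 6.30 and 8.56 CPM in the unmethylated libraries. Its log2 fold change was 1.15 ± 0.30, and the counts do not tell which of the genes is meant. It was not called without methylated replicate 1, methylated replicate 2 or unmethylated replicate 1 (edgeR, Benjamini-Hochberg adjusted p = 0.0972, 0.157 and 0.101).

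The other calls rested on fewer counts or on less margin. PPP5C (chr19:46376500, + strand), a serine/threonine protein phosphatase, had 69 and 81 counts in the methylated libraries, against 7 and 23 in the unmethylated ones (log2 fold change 2.07 ± 0.43). Its change was 1.5 without unmethylated replicate 1 and 3.07 without unmethylated replicate 2, and it was not called without methylated replicate 2 (edgeR, Benjamini-Hochberg adjusted p = 0.0884). The adenosine at chr4:88521765 (- strand), in the overlap of PYURF and PIGY, had 46 and 64 counts in the methylated libraries, against 11 and 14 in the unmethylated libraries (1.87 ± 0.42), and was not called without methylated replicate 2 (adjusted p = 0.154). An adenosine outside any annotated gene, at chr1:40257736 (- strand), had 58 and 22 counts in the methylated libraries, against 9 and 9 in the unmethylated ones (1.89 ± 0.53), and was not called without unmethylated replicate 2 (adjusted p = 0.0509). The groups did not overlap at these loci, but at the last of them the methylated libraries differed from each other by more than the lower one differed from the unmethylated libraries.

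COQ8B and GLRX5 had the largest adjusted p among the called loci. COQ8B (chr19:40692303, - strand), which acts in coenzyme Q synthesis, had 35 and 36 counts in the methylated libraries, against 8 and 11 in the unmethylated ones, and a log2 fold change of 1.63 ± 0.47 (edgeR, Benjamini-Hochberg adjusted p = 0.0413). GLRX5 (chr14:95544019, + strand), a mitochondrial glutaredoxin needed for iron-sulfur cluster assembly, had 9.46 and 8.14 CPM in the methylated libraries, against 4.01 and 3.82 CPM in the unmethylated libraries, and a log2 fold change of 1.14 ± 0.32 (adjusted p = 0.0349). Neither was called with DESeq2, without the filter, or with any 1 library left out. Just beyond the threshold, SAMD8, a sphingomyelin synthase-related gene, had 22 and 25 counts in the methylated libraries, against 7 and 3 in the unmethylated ones (log2 fold change 1.94, edgeR Benjamini-Hochberg adjusted p = 0.0562).

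By mean CPM over all 4 libraries, the 3 loci with the strongest signal at the selected adenosine were MPRIP, CIC and SPPL2B, and none of them was called. In the methylated libraries alone, FEN1 (mean 33.7 CPM) was slightly above SPPL2B (33.5 CPM). MPRIP (chr17:17158587, + strand) had 68.6 and 41.6 CPM in the methylated libraries, against 48.2 and 30.8 CPM in the unmethylated ones. Its groups overlapped, and its log2 fold change was 0.47 ± 0.29 (edgeR, Benjamini-Hochberg adjusted p = 0.43). CIC (chr19:42273459, + strand), the gene of the transcriptional repressor capicua, had 51.3 and 43.9 CPM in the methylated libraries, against 29.5 and 23.4 CPM in the unmethylated libraries. Its groups did not overlap, and the log2 fold change of 0.83 ± 0.27 did not pass (adjusted p = 0.0724), although with at least 50 counts required it did (adjusted p = 0.0349).

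SPPL2B (chr19:2342782, + strand), an intramembrane protease gene, had 37.6 and 29.4 CPM in the methylated libraries, against 26.7 and 31.5 CPM in the unmethylated ones. The groups overlapped, with a log2 fold change of 0.17 ± 0.27. GJA3 (chr13:20142319, - strand), which encodes a lens connexin, had 16.9 and 15.4 CPM in the methylated libraries, against 12.02 and 13.6 CPM in the unmethylated libraries (0.30 ± 0.28). Its groups stood apart by little, and the change was not called. The strongest UGACA locus was in LOC112268271, a long non-coding RNA gene on chromosome 20, with 23.3 and 12.7 CPM in the methylated libraries, against 11.7 and 10.3 CPM in the unmethylated ones (0.69 ± 0.31, not called). The strongest UGACC locus lay in the overlap of URGCP and URGCP-MRPS24, with 12.5 and 11.8 CPM in the methylated libraries, against 8.01 and 10.1 CPM in the unmethylated ones (0.38 ± 0.29, not called).

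The loci were also divided by the base at +2. Summed over the loci, UGACC adenosines had 28.4 and 30.7 CPM in the methylated libraries, against 12.3 and 14.1 CPM in the unmethylated ones, a ratio of 2.24 over 7 loci. Without the called TBC1D9B and ABCB6, an alternative chosen after seeing the data, it was 1.36 over 5. UGACA adenosines had 47.98 and 40.9 CPM in the methylated libraries, against 23.1 and 20.9 CPM in the unmethylated ones, a ratio of 2.02 over 23 loci. UGACU adenosines had 363 and 303 CPM in the methylated libraries, against 197 and 185 CPM in the unmethylated ones, a ratio of 1.74 over the remaining loci. Leaving out the called loci in the same way gave ratios of 1.78 for UGACA and 1.45 for UGACU. The ratio thus fell for every +2 base when its called loci, which were called as higher, were left out. The called loci were 2 of 4 tested for UGACC, 2 of 8 for UGACA and 9 of 35 for UGACU. The log2 ratio of UGACC to UGACU signal was -3.68 and -3.30 in the methylated libraries, against -3.999 and -3.72 in the unmethylated ones, a difference of 0.37. That of UGACA to UGACU differed by 0.22, again without overlap, and the exact permutation p was 0.333 for both, the smallest possible. The ratio of UGACA to UGACC overlapped between the groups, with a difference of -0.15 and an exact permutation p of 0.667 (3 differences computed).

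The change was centred on the selected adenosine. Of the 41 positions from -20 to +20 around it, the adenosine itself had the highest ratio of methylated to unmethylated signal, 1.80, and the most sites called higher, 13. The next highest ratios were 1.38 at -6, 1.31 at -13 and 1.30 at +4. On either side the change was small: at -1 the sum was 292 ± 12.2 CPM in the methylated libraries and 265 ± 18.98 CPM in the unmethylated ones (SD, n = 2 each), and edgeR called none of 43 tested sites. At +1 it was 298 ± 29.6 CPM in the methylated libraries and 333 ± 77.5 CPM in the unmethylated ones, with none of 37 tested sites called higher and 1 called lower. At an unadjusted p under 0.05, 4 sites at -1 and 4 at +1 were higher, and 3 at +1 were lower. These unadjusted counts also stand without a share over all sites.

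Of all 141 positions, the strongest summed crosslink signal of these loci in both groups was at the U of the motif, at -2. That position had 2752 and 2418 CPM in the methylated libraries, against 2540 and 2380 CPM in the unmethylated ones. It was thus 6.35 times the signal at the adenosine in the methylated libraries and 10.9 times in the unmethylated ones. The groups overlapped at -2, the ratio was 1.05, and 5 of 86 tested sites were called higher and 1 lower. The sum at -2 was also concentrated, with 65.4% of it in 3 loci.

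Against loci of the same class with G in place of U at -2, the UGACH change was smaller. The 1032 GGACH loci had 5318 and 5146 CPM at the selected adenosine in the methylated libraries, against 1260 and 1412 CPM in the unmethylated ones, a ratio of 3.92. Per oligonucleotide, the UGACH loci had 0.838 CPM in the methylated libraries and 0.465 CPM in the unmethylated ones, and the GGACH loci had 1.69 CPM in the methylated libraries and 0.432 CPM in the unmethylated ones. The motifs were thus close in the unmethylated libraries and apart in the methylated ones. The log2 ratio of UGACH to GGACH signal was -3.60 and -3.78 in the methylated libraries, against -2.44 and -2.68 in the unmethylated ones, a difference of -1.13 with an exact permutation p of 0.333. Of the tested adenosines, 13 of 47 were called higher at UGACH loci and 243 of 419 at GGACH loci. The filter was passed through the methylated libraries only by 12 of the 47 and by 163 of the 419.

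Against AGACH loci and against UGACH loci that were unmodified in cells, the difference went the other way and was smaller. The 266 cell-methylated AGACH loci had a ratio of 1.38, with 27 tested adenosines (25% of those tested) called higher. The log2 ratio of UGACH to AGACH signal was -0.71 and -0.84 in the methylated libraries, against -0.999 and -1.30 in the unmethylated ones, a difference of 0.38. The 369 UGACH loci chosen as unmodified in HEK293T cells had a ratio of 1.26, with 15 tested adenosines (14% of those tested) called higher and 1 lower. Set against these, the log2 ratio was -0.69 and -0.73 in the methylated libraries and -1.16 and -1.29 in the unmethylated ones, a difference of 0.51. In each of these comparisons the methylated libraries did not overlap the unmethylated ones, and the exact permutation p was 0.333, the smallest possible (3 comparisons).

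Median fold changes of tested adenosines followed the same order of groups. They were 0.97 on the log2 scale at the cell-methylated UGACH loci, 2.18 at GGACH, 0.93 at AGACH and 0.44 at the cell-unmodified UGACH loci. In the same order, 12, 163, 23 and 15 of the tested adenosines had passed the filter through the methylated libraries only. With at least 10 counts in every library the medians were 0.66 over 26, 1.15 over 191, 0.74 over 63 and 0.29 over 69 adenosines. Of these, 7, 94, 15 and 12 were called higher. In that restricted set the median of the cell-methylated UGACH loci was therefore slightly below that of the AGACH loci. With the same +2 base, cell-methylated UGACU loci had a ratio of 1.74 and cell-unmodified UGACU loci 1.30. These cell-unmodified loci had 201.7 ± 12.2 CPM in the methylated libraries and 155.7 ± 10.96 CPM in the unmethylated ones (SD, n = 2 each).

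The 162 sequences also held other adenosines in DRACN motifs, with the same RNA molecules and the same libraries as the selected one. In the same fit, 29 of 46 tested GGACH adenosines, 10 of 21 GAACH, 8 of 22 AGACH and 7 of 29 further UGACH adenosines in these sequences were called higher. Over all sequences of the library the shares of tested sites called higher were 58.3% for GGACH, 41.2% for GAACH, 28.7% for AGACH and 17.05% for UGACH outside position 51. Also called higher were 2 of 14 tested AAACH adenosines, 1 of 3 UAACH and 5 of 16 DRACG. Over all sequences the shares for these classes were 16.9%, 27% and 40%. Adenosines before C outside DRACN were called higher at 6 tested sites (4.14%), and adenosines not before C at 26 (2.48%). Over all sequences these shares were 7.91% and 1.95%.

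The signal summed over the 88 other GGACH adenosines was 858 and 804 CPM in the methylated libraries, against 225 and 277 CPM in the unmethylated ones, a ratio of 3.31. Over the 93 further UGACH adenosines it was 162.7 and 159.5 CPM in the methylated libraries, against 139.5 and 143.8 CPM in the unmethylated ones, a ratio of 1.14. These include selected adenosines of other loci, in the overlapping sequences of SGSH and PNMA1 described below. The log2 ratio of selected to other GGACH signal was -0.97 and -1.10 in the methylated libraries and 0.05 and -0.33 in the unmethylated ones, a difference of -0.89. Relative to the further UGACH adenosines it was 1.43 and 1.23 in the methylated libraries, against 0.73 and 0.62 in the unmethylated ones, a difference of 0.66. The groups did not overlap in either, and the exact permutation p was 0.333 for each, the smallest possible (2 comparisons). Without the site with the most counts on each side the differences were -1.09 and 0.68.

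In total, 62 other DRACN adenosines were called higher, in 46 of the 162 sequences. The filter bears on these calls too. Many of the 62 passed it through the methylated libraries only, with fewer than 10 counts in each unmethylated library. Most of the 29 called GGACH adenosines were among these. The GGACC adenosine of PPP5C at +40 was 1 of these, with 3 and 7 counts in the unmethylated libraries. Among the 47 tested loci, 26 held at least 1 of the 62, and 8 of these 26 were also called at the selected adenosine. The windows below show 4 of these neighbours with their own motif in capitals, chosen after their values were seen because they lie in loci described above.
PPP5C at +40: ugguacaaGGACCagaagaaa
GLRX5 at +30: cagaauggGGACUugguggaa
FEN1 at +45: cgggcuguGGACCucauccag
SPPL2B at -6: ccauccggGGACAgugacuga

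In PPP5C the GGACC adenosine 40 nucleotides downstream had 643 and 604 counts in the methylated libraries, against 3 and 7 in the unmethylated ones, a log2 fold change of 6.68 ± 0.41, where the selected UGACA adenosine of the same RNA changed by 2.07. In GLRX5 the GGACU adenosine at +30 had 791 and 637 counts in the methylated libraries, against 23 and 15 in the unmethylated libraries (4.96 ± 0.36), and a GAACU adenosine at +43 had 808 and 599 in the methylated libraries, against 41 and 51 in the unmethylated ones (3.68 ± 0.32), where the selected adenosine changed by 1.14. In FEN1 the GGACC adenosine at +45 had 548 and 518 counts in the methylated libraries, against 52 and 58 in the unmethylated ones (3.02 ± 0.30), where the selected one changed by 1.34. In these 3 RNAs the neighbour had a larger log2 change than the selected adenosine, and the groups did not overlap at the neighbour. The difference between the 2 adenosines of an RNA was not tested.

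SPPL2B showed both motifs within 6 nucleotides. Its GGACA adenosine at -6 had 2078 and 1364 counts in the methylated libraries, against 272 and 419 in the unmethylated ones, a log2 fold change of 2.08 ± 0.29 (edgeR, Benjamini-Hochberg adjusted p = 5.1e-05). Its selected UGACU adenosine changed by 0.17 and was not called. In NIPA1 the 2 changes were closer: the UAACA adenosine at +11 had 309 and 308 counts in the methylated libraries, against 73 and 27 in the unmethylated ones (2.34 ± 0.36), and the selected one changed by 2.65. In CIC a GGACA adenosine at +24 had 2972 and 3554 counts in the methylated libraries, against 742 and 1693 in the unmethylated libraries (1.18 ± 0.29), and the selected one changed by 0.83.

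Such neighbours enter the total of a sequence, so the test was also run against that total. With each site scaled to its own sequence, 10 of the 47 adenosines were called higher and none lower, where 1.8% of all sites were called higher, and 9 of the 10 were among the 13. PPP5C, COQ8B, GLRX5 and the PYURF/PIGY locus were no longer called, and MMAB, an enzyme gene of vitamin B12 metabolism that was not called against library totals, was. The sequence total of PPP5C was 6515 and 6863 counts in the methylated libraries, against 2529 and 2936 in the unmethylated ones, and that of GLRX5 was 12079 and 9773 in the methylated libraries, against 5324 and 5162 in the unmethylated ones. Scaled this way, the change on the log2 scale was 1.04 in PPP5C and 0.34 in GLRX5, and in ABCB6 it was 3.33.

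Overlapping pairs of loci in SGSH and in PNMA1 placed an identical adenosine in 2 different RNAs. SGSH encodes a lysosomal enzyme that degrades heparan sulfate, and PNMA1 a neuronal antigen of paraneoplastic disease. The SGSH adenosine at chr17:80209640 (- strand) was the selected one at position 51 in 1 RNA. In that RNA it had 7 and 1 counts (0.534 and 0.0754 CPM) in the methylated libraries. In the unmethylated ones it had 0 and 1 counts (0 and 0.0831 CPM). In the sequence of the neighbouring locus the same adenosine lay 57 nucleotides downstream of position 51, with all 41 surrounding bases identical. There it had 14.4 and 8.22 CPM in the methylated libraries, against 6.01 and 3.16 CPM in the unmethylated ones, a log2 fold change of 1.30 (edgeR, Benjamini-Hochberg adjusted p = 0.0298). The groups did not overlap there, and the total counts of that RNA were 2.90 and 2.31 times those of the other in the methylated libraries.

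The PNMA1 adenosine at chr14:73713810 (- strand) had 1 and 0 counts (0.0763 and 0 CPM) in the methylated libraries as the selected one. In the unmethylated ones it had 0 and 0. In the overlapping sequence, 47 nucleotides downstream of position 51, it had 9.38 and 10.6 CPM in the methylated libraries, against 12.7 and 8.23 CPM in the unmethylated libraries, and was not called (log2 fold change -0.09). The total counts of that RNA were 5.79 and 4.86 times those of the other in the methylated libraries. In both pairs the same adenosine with the same surroundings gave many counts in 1 RNA and few in the other. The pairs were noticed in the data, and what sets the number of counts was not tested.

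Tag copies gave a view within each locus. Of the 486 copies, 305 had at least 1 count at the selected adenosine. With each copy as its own site, 76 copies were tested, of which 19 were called higher and 1 lower, where 3.8% of all sites in that fit were called higher and 1.84% lower. All 3 copies had a log2 ratio above 0 at 10 of the 13 called loci and at 16 of the 34 uncalled tested ones. These tallies are not independent of the calls, which rest on the sum of the copies. A copy without counts in any library had a value of -0.23 and was tallied as not above 0. At NIPA1 the copies ranged from 1.94 to 3.32 on the log2 scale and at PPP5C from 1.90 to 2.71, and at the uncalled MPRIP from 0.26 to 0.68. At ZNF276 they ranged from -0.17 to 3.995, a wider span than the quartiles of the 47 tested loci (0.51 and 1.83). At the chr1:40257736 locus 1 copy had 11 and 1 counts in the methylated libraries, against 0 and 0 in the unmethylated ones, and another had 6 and 4 in the methylated libraries, against 3 and 5 in the unmethylated ones. At the PYURF/PIGY locus 1 copy held all the counts at the selected adenosine. Copies share their locus and their libraries and were not treated as replicates.

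Sequence and predicted folding were compared as a description. The median GC content of the 141-nucleotide sequence was 57.4% at the 13 called loci, 60.6% at the 34 uncalled tested loci and 51.8% at the untested ones. The selected adenosine was predicted to be unpaired with a median probability of 0.707 at called loci, 0.913 at uncalled tested loci and 0.658 at untested loci. The called loci ran from 0.0103 at the chr1:40257736 adenosine to 0.999 at GLRX5, so calls occurred at adenosines predicted as paired and as unpaired. The base at +4 was U at 8 of the 13 called loci, 12 of the 34 uncalled tested loci and 48 of the untested loci. The base at +3 was G at 3 of the 13 called loci, 18 of the 34 uncalled tested loci and 48 of the untested ones. Bases were tallied from -8 to +8, and no difference was tested. Other positions differed too, such as +5, where U stood at 4 of the 13 called loci, 1 of the 34 uncalled tested loci and 37 of the untested ones.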

How the data were processed

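The authors deposited 1 table of raw counts of reverse transcription stops at 141 positions of each oligonucleotide in each library, without normalization. FastQC (0.11.8), STAR (2.7.3a) and bedtools (2.27.1) are listed in the submitters' processing notes, with no role stated. The build and any removal of duplicates are not given in the sources used. Of 127 loci placed once on RefSeq promoter sequences of GRCh38.p14 by exact 40-base matches, position 51 fell on the table's coordinate in 125, so the coordinates are read as GRCh38.

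A site was 1 position of 1 distinct sequence, with its tag copies summed. A site entered the test if 2 or more of the 4 libraries held 10 or more counts there. The test was edgeR's quasi-likelihood F test (version 4.0.16, R 4.3.3) on group alone after TMM scaling, with Benjamini-Hochberg adjustment over all 142938 sites. Standard errors were the log2 change over the square root of F. Pooled values were tested by exact two-sided permutation over libraries. CPM is counts scaled to a library total of 1000000. Log2 ratios of tag copies used a pseudocount of 0.5 counts. Folding came from ViennaRNA 2.7.2, summaries from Python 3.11.15, and gene names from overlap with RefSeq genes. The edgeR fit was also run on simulated counts with 1 dispersion for all sites, which checks the code and not the calls given here.

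Totals over sequences differed between replicates beyond counting noise (chi-square per degree of freedom of 39.0 in methylated and 44.9 in unmethylated libraries), so no library was merged. The members, lists and named loci were chosen with earlier results of these data known. Named loci were the called ones with both methylated libraries above both unmethylated ones, the strongest tested locus for each +2 base, the 5 strongest uncalled loci, and the 2 on either side of the threshold. One locus just beyond the threshold is not reported here. Alternatives were DESeq2 1.42.0, library-total scaling, no filter or a minimum of 50 counts, single tag copies, sequence totals, a replicate block, leaving out each library, and, for sums, leaving out the strongest locus.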

Additional observations from a re-analysis of the deposited data

How the results depend on the processing

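The number of these loci called higher was 13 of 47. It was 9 with DESeq2 (12 of the 13 had an adjusted p), 13 with library-total scaling and 13 without the filter. With at least 50 counts it was 10 of 17, and with single tag copies 14. Against sequence totals it was 10, and with the replicate block 15. The loci called were not always the same. Without the filter more loci were tested, COQ8B and GLRX5 were lost, and POLR1A and RNF182 were gained. Of all sites tested, 2.71% were called higher with DESeq2 and 1.24% without the filter. The share was 3.84% with library-total scaling, 8.32% with at least 50 counts and 3.8% with single tag copies. Against sequence totals it was 1.8%, and with the replicate block 3.92%. With 1 library left out it ranged from 5 to 15: it was 6 without methylated replicate 1 and 5 without methylated replicate 2, where 35 loci passed the filter and 10 of the 13 were still tested. Of all sites tested, 1.41% and 1.09% were called higher in these fits. Without an unmethylated library it was 15 or 11. COQ8B and GLRX5 lost their call without any 1 library, and LBX2/LBX2-AS1 without 3 of the 4. ABCB6, NIPA1, ZNF276 and ZNF638 kept it without each. The log2 fold change of SPPL2B, 0.17, was -0.012 without methylated replicate 1 and 0.406 without methylated replicate 2. The cause was not tested. Same-numbered libraries did not deviate together from their group means (r = -0.08 over 142938 sites, not a test). The labels do not say whether same-numbered libraries belong together, and the main test treated them as unpaired. The pooled ratio of 1.80 ranged from 1.66 to 1.94 with 1 library left out, and the differences of -1.13, 0.38 and 0.51 from GGACH, AGACH and cell-unmodified UGACH loci from -1.25 to -1.01, 0.23 to 0.52 and 0.45 to 0.58; all kept their direction under every alternative run. Against the loci's own counts the differences were -1.15, 0.24 and 0.35, and without the strongest locus of each group -0.93, 0.39 and 0.51. Counts at the adenosine limit what can be read at the untested loci.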
